A study of Mus musculus with 10 samples.

Results

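Pou5f1 encodes OCT4, the POU-family transcription factor at the centre of the pluripotency network, and the open chromatin within 30 kb of the gene was followed here through reprogramming. Of 685776 peaks in 10 ATAC-seq peak lists, 63 lay between 30 kb before the start and 30 kb after the end of Pou5f1 (mm10, chromosome 17, 35476032 to 35540777). Merged where they overlapped, these 63 peaks formed 14 of the 208851 regions of the series. ATAC-seq cuts accessible DNA with a transposase, so a peak marks DNA that the enzyme reached more often than its surroundings.

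There were 2 libraries at each of 5 stages, all from the C57BL/6 x 129 background and under the same batch name. MEF are unsorted embryonic fibroblasts in medium without doxycycline. DAY3, DAY6 and DAY9 are such cells after 3, 6 and 9 days in embryonic stem cell medium with 1 ug/ml doxycycline and 50 ug/ml ascorbic acid. DAY3 cells were unsorted, and DAY6 and DAY9 cells were sorted for a surface marker that the labels give as SSEA+. MEF, DAY3, DAY6 and DAY9 all carried the reprogramming cassette, a single transcript for OCT4, KLF4, SOX2 and MYC at Col1a1, together with M2rtTA, the activator that doxycycline switches on, at Rosa26. ESC are the embryonic stem cell line V6.5, unsorted, grown on irradiated feeder cells, and without the cassette. Sorting, doxycycline and presence of the cassette therefore cannot be told apart from stage in some of the comparisons.

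In the mouse embryo and in embryonic stem cells, Pou5f1 is transcribed under a GC-rich promoter without a TATA box and a pair of upstream enhancers. The distal enhancer is the one used in naive pluripotent cells, and the proximal enhancer, which lies between it and the promoter, is used in the epiblast. OCT4 and SOX2 bind the distal enhancer and so maintain the expression of the gene, and somatic cells keep the locus silent. The reprogramming cassette carries the coding sequences of its factors, so a fragment from its Oct4 part can align to the exons of Pou5f1 but not to the promoter, the introns or the enhancers.

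Both starts that RefSeq annotates for Pou5f1 (GRCm38.p6, plus strand) are shown by the 250 bases before them, because the first of these stretches is the promoter against which the peaks were placed. Capitals mark the motifs searched on both strands, which were GGGCGG (the GC box bound by SP and KLF factors), AGGTCA (a nuclear receptor half-site) and CACCC (a KLF-type box). None of the marked motifs overlapped one of another kind.
Pou5f1 first start, chr17:35505782-35506031: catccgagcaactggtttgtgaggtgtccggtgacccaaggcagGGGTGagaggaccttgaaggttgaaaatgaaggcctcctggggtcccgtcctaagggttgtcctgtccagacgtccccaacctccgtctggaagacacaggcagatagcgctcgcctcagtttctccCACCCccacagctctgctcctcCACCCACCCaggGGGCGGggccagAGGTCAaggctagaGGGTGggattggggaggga
Pou5f1 second start, chr17:35508557-35508806: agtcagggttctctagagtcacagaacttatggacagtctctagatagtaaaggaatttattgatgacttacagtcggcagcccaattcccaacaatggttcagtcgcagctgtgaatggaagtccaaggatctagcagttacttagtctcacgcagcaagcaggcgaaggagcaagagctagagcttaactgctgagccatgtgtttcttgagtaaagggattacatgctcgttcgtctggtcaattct

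The stretch before the first start held 1 GGGCGG, 1 AGGTCA and 5 CACCC matches, and its GC content was 62.0%. The GGGCGG began 45 bases and the AGGTCA 33 bases before the first base of the gene. Of 32841 RefSeq promoters cut to the same length, 32.7% held GGGCGG, 14.0% AGGTCA and 52.0% CACCC, and their median GC content was 52.4%. The stretch before the second start, which lies 2775 bases inside the gene, held none of these letters and had a GC content of 45.6%. A match describes the letters in a window and is not evidence of binding.

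These promoter bases were covered by a peak in few libraries. ESC replicate 1 had a peak from position -273 to 100 relative to the first base of the gene, which covered all 250 bases shown for the first start. DAY9 replicate 2 covered the last 38 of them with a peak that otherwise lay inside the gene. The other 8 libraries, ESC replicate 2 among them, covered 0 of these bases, and no library covered a base of the stretch before the second start. The ESC replicate 1 peak was weak in its list, with a fold of 2.59, the authors' linear enrichment over local background, at the 0.806th percentile of that list's folds. A listed promoter peak was therefore not shared by the ESC libraries. In ESC replicate 2 a promoter peak of fewer than 31 stacked fragments could not have been listed at the highest local background around the gene.

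About 2 kb before the gene, at the position of the distal enhancer, a peak was listed from DAY6 on. No MEF or DAY3 library had a peak there, and all 6 DAY6, DAY9 and ESC libraries did. The DAY9 replicate 1 peak, for example, ran from 35503702 to 35504366. The region overlaps the long non-coding RNA gene Gm32362, annotated on the opposite strand with its first base 295 bases before that of Pou5f1. Whether the peak falls in an exon or an intron of Gm32362 was not analysed here.

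Peak height was expressed as relative pileup, the number of fragments stacked at the highest point of a peak, recovered from the deposited fold and p-value, divided by the commonest expected pileup of the same library. At the upstream peak the 2 DAY6 libraries had 13.0 and 21.1, the DAY9 libraries 25.8 and 28.6, and the ESC libraries 29.3 and 12.5 (replicate 1 first, here and throughout). The DAY9 libraries stood above the DAY6 libraries, but the ESC pair spanned the values of both, so the order of DAY6, DAY9 and ESC is not resolved. Within their own lists, these peaks lay between the 58.3th (ESC replicate 2) and the 80.4th (DAY9 replicate 1) percentile of fold. The lowest relative pileup that could pass the deposited −log10 p minimum of 5 was 4.10 and 2.76 in MEF and 3.39 and 3.42 in DAY3. With the highest local background found around the gene, these floors were 4.69, 3.73, 4.15 and 4.17, all below the lowest DAY6 value. Gaps in the peak numbering show that some called peaks are not listed, so a missing peak means only a peak not listed. ATAC-seq was done on bulk cells, so fewer cells with an open enhancer and a less open enhancer in each cell cannot be told apart.

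**Figure D1:**
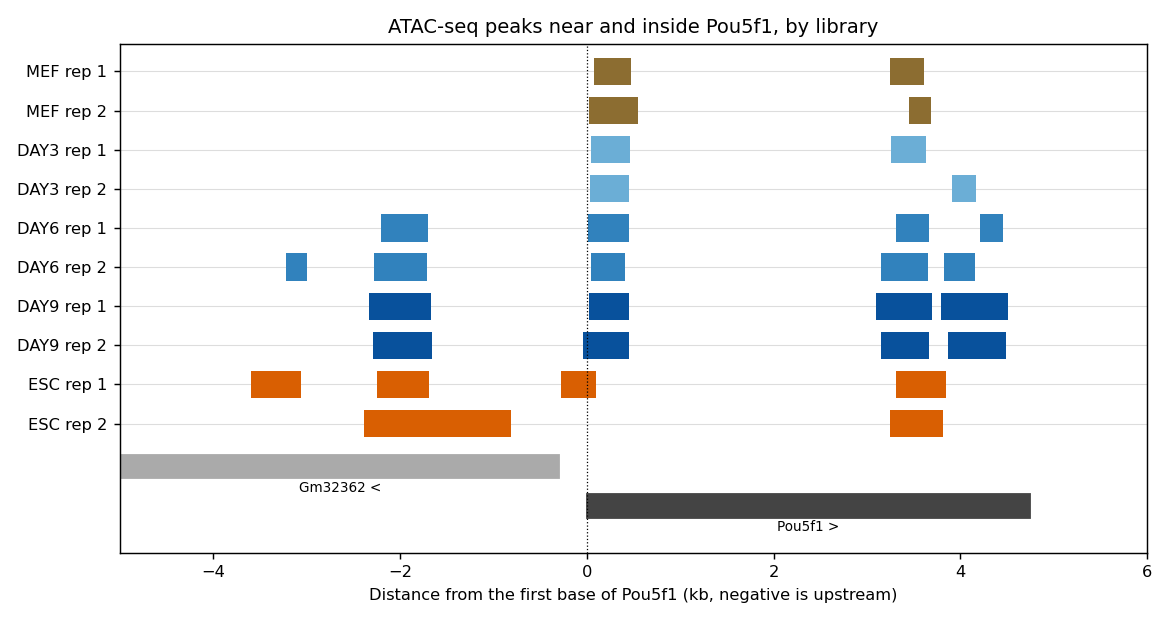
Peaks from 5 kb before to 6 kb after the first base of Pou5f1 (dotted line), 1 row per library, with box width to scale and genes below (> plus strand, < minus strand). The peak about 2 kb upstream is present in the 6 DAY6, DAY9 and ESC libraries only, and a peak with its midpoint in the first 0.5 kb of the gene in the 8 libraries of cassette cells, while the ESC replicate 1 peak over the promoter reaches 100 bases into the gene.

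The upstream peak was 502 and 575 bp wide in DAY6, 665 and 635 bp in DAY9 and 559 bp in ESC replicate 1. In ESC replicate 2 it was 1576 bp wide and ran from position -2389 to -814, into the stretch between the distal enhancer and the promoter where the proximal enhancer lies. No other library had a covered base in that last part, so the widening rests on ESC replicate 2. A separate, weaker peak about 3 kb before the gene was listed in DAY6 replicate 2 (relative pileup 8.59) and ESC replicate 1 (8.33). It was present in neither library of MEF, DAY3 or DAY9.

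In the 5 kb before the gene, peaks covered 0 bases in each MEF and DAY3 library, 502 and 792 bases for DAY6, 665 and 673 for DAY9, and 1369 and 1576 for ESC. The DAY6 and DAY9 values overlapped, and both ESC values lay above them. The spread of pileup within the DAY3 pair and within the DAY9 pair, over shared regions of the series, was near counting noise (1.33 and 1.42 times what counting alone gives). Each of these pairs therefore entered the tests as 1 sample, its mean, though covered length in a window can still differ within a pair. Stage accounted for 97.6% of the variation of this covered length, a value that 9 of the 420 possible assignments of the 8 samples to stages equalled or passed (exact permutation, p = 0.0214). Adjusted over the 8 tests of covered length the p-value was 0.0571 (exact permutation test, Benjamini-Hochberg), which misses 0.05. Along MEF, DAY3, DAY6 and DAY9 the order of the values gave an adjusted p of 0.167 (two-sided exact Jonckheere-Terpstra permutation test, 6 samples, unadjusted p = 0.0833). With 6 samples that test cannot give an unadjusted p below 0.0111, so it had little room to pass 0.05 after adjustment. With the 10 libraries counted separately, the adjusted p-values were 0.0206 between stages and 0.0457 for the trend (exact permutation tests). With equal numbers of peaks the share between stages was 72.4% (adjusted exact permutation p = 0.643).

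Across protein-coding genes, a gene was called gained between stages if both libraries of the later and neither library of the earlier stage had a peak in the 5 kb before its start. Pou5f1 was gained in 6 of the 10 pairs of stages and lost in 0. It was gained in DAY6 against DAY3, where 2.86% of the 17491 genes were, and in DAY6 against MEF (3.21% of genes). Likewise it was gained in DAY9 against DAY3 (5.95%) and MEF (5.58%), and in ESC against DAY3 (6.73%) and MEF (5.56%). It was not gained in DAY3 against MEF (1.26% of genes), DAY9 against DAY6 (1.80%), ESC against DAY6 (3.45%) or ESC against DAY9 (2.49%). Pou5f1 was lost in none of the 10, where the shares of genes lost against MEF were 2.52% (DAY3), 2.03% (DAY6), 1.86% (DAY9) and 1.96% (ESC). The shares lost against DAY3 were 0.377% (DAY6), 0.486% (DAY9) and 1.06% (ESC), those against DAY6 were 0.252% (DAY9) and 1.25% (ESC), and that of ESC against DAY9 was 2.24%. The whole pattern of Pou5f1, no peak in MEF or DAY3 and peaks in all DAY6, DAY9 and ESC libraries, was shared by 0.892% of genes, 156 in number with Pou5f1 itself. With 2 libraries against 2 these calls have no p-value, since an exact permutation test cannot go below 0.333.

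Inside the gene the stages differed in another way. A peak with its midpoint in the first 0.5 kb of Pou5f1, called the gene-start peak here, was listed in all 8 MEF, DAY3, DAY6 and DAY9 libraries, the fibroblasts without doxycycline included. Neither ESC library had a peak with its midpoint there, but the promoter peak of ESC replicate 1 reached over the first 100 bases of the gene and overlapped some of the gene-start peaks. Its left edge lay between 38 bases before and 76 bases after the first base of the gene, and its right edge between 409 and 544 bases after it. In 7 of the 8 libraries the peak lay wholly inside the gene, the exception being DAY9 replicate 2. The exon positions of Pou5f1 were not available in the tables used here, so exon and intron bases were not separated.

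Relative pileup at this gene-start peak was 4.39 and 9.01 for MEF, 8.30 and 7.78 for DAY3, 14.8 and 15.9 for DAY6, and 22.2 and 25.8 for DAY9. It was thus higher in each DAY6 and DAY9 library than in any MEF or DAY3 library. The authors' fold varied less, from 3.62 (MEF replicate 1) through a median of 5.63 to 6.30 (DAY6 replicate 1). A peak at the gene start with a relative pileup under 9.19 in ESC replicate 1, or under 5.68 in ESC replicate 2, could have gone unlisted at the local background around the gene. The DAY6 and DAY9 values were above these limits, while those of MEF and DAY3 were not above the first.

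**Figure D2:**
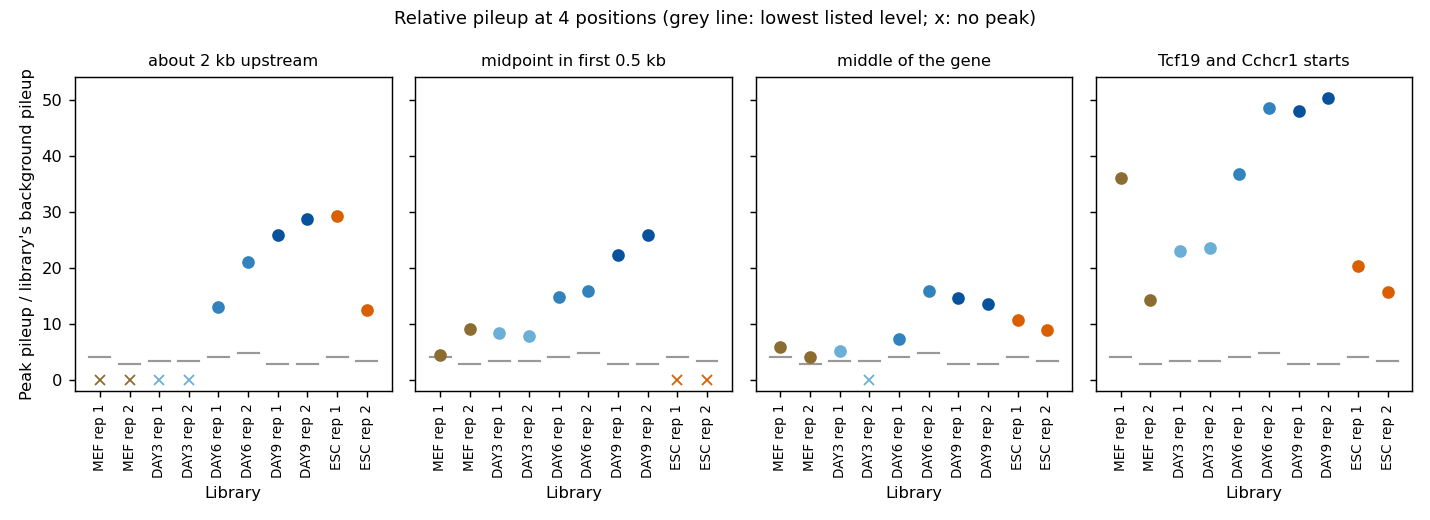
Relative pileup (peak pileup divided by the background pileup of the library, linear axis) in each library at 4 positions, with crosses for libraries without a peak and grey lines at the lowest level that passes the p-value minimum at background. The upstream panel has points at DAY6, DAY9 and ESC alone, the gene-start panel at MEF, DAY3, DAY6 and DAY9 alone, and the Tcf19 and Cchcr1 panel in all 10 libraries.

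Right edges of the gene-start peak coincided. DAY3 replicate 2, DAY6 replicate 1 and both DAY9 libraries ended it at the same base, 35506478, 446 bases after the first base of the gene, although the peaks were called separately. This was noticed after the peaks had been seen. Among 13631 regions with 1 peak in each of the same 8 libraries, 1.40% had a right edge shared to the base by at least 4 libraries and 1.39% had such a left edge. No 4 libraries shared a left edge at the gene start of Pou5f1, where the commonest left edge was shared by 2.

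To compare with the rest of the cassette, peaks with both ends inside a gene were counted in Sox2, Klf4 and Myc, which encode the other factors. Sox2 had such a peak in all 8 libraries of cassette cells and in 0 of 2 ESC libraries. Counted in the same way, Pou5f1 had a peak inside the gene in all 8 and in both ESC libraries. Its gene-start peak alone, a position chosen after the peaks were seen, met the condition in 7 of the 8 and in neither ESC library. Klf4 and Myc had peaks inside the gene in all 8 and also in both ESC libraries, so presence alone does not part cassette cells from ESC at these genes. With equal numbers of peaks, 10 libraries had a peak inside Myc, 8 inside Pou5f1, 7 inside Klf4 and 7 inside Sox2. The counts for Klf4, Pou5f1 and Sox2 thus depend on list length. The Sox2 peak had a fold of 3.02 to 5.39, with a median of 4.84 over the 8 libraries. Its pileup was 20 and 62 fragments in MEF, where the Pou5f1 gene start had 15 and 75. The pileups were 48 and 55 against 44 and 41 in DAY3, 33 and 44 against 51 and 37 in DAY6, and 132 and 135 against 163 and 190 in DAY9, Sox2 first. The ratio of Pou5f1 to Sox2 pileup stayed between 0.745 and 1.55, with a median of 1.06. Its 95% interval (Clopper-Pearson, counting error only) included 1 in 7 of 8 libraries, DAY9 replicate 2 being the exception with 1.12 to 1.77.

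**Figure D3:**
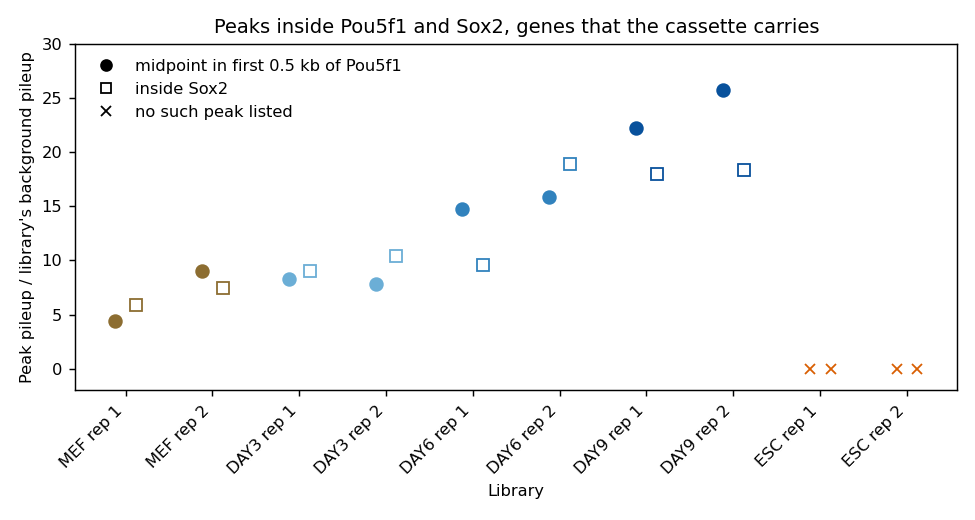
Relative pileup of the peak with its midpoint in the first 0.5 kb of Pou5f1 (filled circles) and of the peak inside Sox2 (open squares) in each library, linear axis. Both are present in the 8 libraries of cells with the cassette, where they are higher in DAY9 than in MEF, and ESC has crosses, for no peak with that midpoint in Pou5f1 (the promoter peak of ESC replicate 1 is not drawn) and no peak inside Sox2.

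Further inside the gene, peaks were also present in ESC. Between 3.1 and 3.8 kb after the first base, a peak was listed in 9 libraries, all but DAY3 replicate 2. Its relative pileup was 5.86 and 4.09 for MEF, 5.09 for DAY3 replicate 1, 7.24 and 15.9 for DAY6, 14.6 and 13.6 for DAY9, and 10.6 and 8.98 for ESC. The ESC values lay between those of MEF and DAY9 and within the range of the DAY6 pair. A further peak, between 3.8 and 4.5 kb, was listed in DAY3 replicate 2 (relative pileup 4.36), both DAY6 libraries (6.08 and 8.59) and both DAY9 libraries (10.4 and 9.77). It was listed in no MEF and no ESC library. Its absence from the ESC lists is limited by depth, since at the local background a peak with a relative pileup under 9.19 in ESC replicate 1, or under 5.68 in ESC replicate 2, could have gone unlisted.

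Over the whole gene body of 4746 bases, the covered bases numbered 760 and 758 for MEF, 796 and 672 for DAY3, 1038 and 1200 for DAY6, 1738 and 1590 for DAY9, and 640 and 565 for ESC. Both DAY9 libraries lay above all others, and both ESC libraries below all others. Stage accounted for 98.3% of the variation, the most in any of the 420 assignments (exact permutation, p = 0.00238, adjusted p = 0.0190). The call was lost when the number of peaks was made equal in all lists (82.7%, adjusted exact permutation p = 0.343), and relative to the covered length of the whole list (90.4%, adjusted exact permutation p = 0.129). Without any 1 of the MEF, DAY6 or ESC libraries the shares were 98.2% to 99.7%. Only 105 arrangements then remained, which limits how small a p-value can be, so the call could not be judged there. The trend from MEF to DAY9 had an adjusted p of 0.196 (two-sided exact Jonckheere-Terpstra permutation test).

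As a reference within each library, the pileups were set against the peak at the facing starts of Tcf19, a cell-cycle gene, and Cchcr1, a centrosomal coiled-coil gene, about 11 kb after the first base of Pou5f1. This peak was listed in all 10 libraries, at a relative pileup of 36.02 and 14.2 for MEF, 23.0 and 23.5 for DAY3, 36.8 and 48.6 for DAY6, 48.0 and 50.2 for DAY9, and 20.4 and 15.8 for ESC. The reference itself thus varied, and the MEF libraries differed more from each other than from DAY3.

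As a share of the reference, the upstream peak was 35.4% and 43.4% for DAY6, 53.7% and 57.0% for DAY9, and 144% and 79.1% for ESC. Both ESC shares lay above all DAY6 and DAY9 shares, whereas relative pileup showed no such order, and the reference itself was lower in ESC than in DAY6 and DAY9. The 95% interval of ESC replicate 2 (56.7% to 110%, Clopper-Pearson, counting error only) overlapped those of both DAY9 libraries and of DAY6 replicate 2. That of ESC replicate 1 (105% to 197%) overlapped no DAY6 or DAY9 interval. The gene-start peak was 36.1% and 33.1% of the reference in DAY3, 40.2% and 32.7% in DAY6, and 46.3% and 51.4% in DAY9, with overlapping 95% intervals in DAY3 and DAY6. The rise of its relative pileup from DAY3 to DAY6 was not seen on this scale. In MEF the share was 12.2% (6.62% to 20.9%, Clopper-Pearson 95% interval, counting error only) in replicate 1 and 63.6% (46.9% to 85.6%) in replicate 2. The MEF libraries hence differed at the gene start by more than counting error, and the MEF level is not fixed by these data. The background pileup was 3.42 in MEF replicate 1 and 8.32 in MEF replicate 2, and its part in this difference was not tested.

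**Figure D4:**
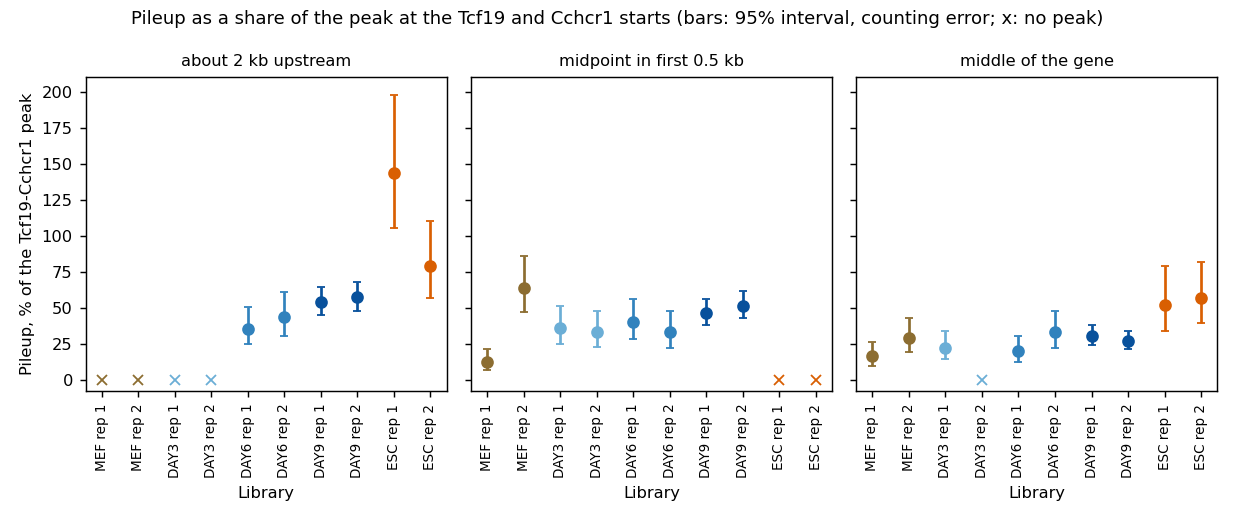
Peak pileup in percent of the peak at the Tcf19 and Cchcr1 starts in the same library, at 3 positions, with 95% Clopper-Pearson intervals for counting error and crosses for libraries without a peak. The upstream share is highest in ESC (144% and 79.1%), but the interval of ESC replicate 2 overlaps those of both DAY9 libraries. The gene-start intervals of the MEF libraries, around 12.2% and 63.6%, do not overlap.

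Far upstream, from 30 to 5 kb before Pou5f1, the listed peaks differed by stage and none overlapped a gene. MEF had a peak about 25 kb before the gene in both libraries (fold 3.39 and 3.25), which no other library had. DAY9 had a peak about 20.1 kb before it in both libraries (2.76 and 3.34), and ESC had a peak about 15.5 kb before it in both (5.60 and 4.42). A peak about 26.3 kb before the gene was listed in MEF replicate 1 alone, and one about 21.8 kb before it in MEF replicate 2 and DAY9 replicate 2. No DAY3 or DAY6 library had a peak in this stretch. Covered bases were 863 and 896 in MEF, 248 and 683 in DAY9, and 470 and 445 in ESC. Stage accounted for 99.9% of the variation, or 92.0% with the 10 libraries counted separately. The 99.9% rests on the DAY9 pair entered as its mean, which leaves out the spread between 248 and 683. Its adjusted p was 0.0571 (exact permutation test, unadjusted p = 0.0214). That share was 50.5% with equal numbers of peaks (adjusted exact permutation p = 0.653) and 42.9% with scores of 133, their pooled median, or more (adjusted exact permutation p = 1). The ESC peak remained in both libraries when all lists were cut to 45497 peaks, whereas the DAY9 peak was then in neither. With scores of 133 or more the ESC peak remained in replicate 1 alone. In the lists cut to 45497 peaks, MEF had 1 region of the whole window in both libraries, the Tcf19 and Cchcr1 peak. The MEF peak about 25 kb before the gene was thus not kept in both.

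**Figure D5:**
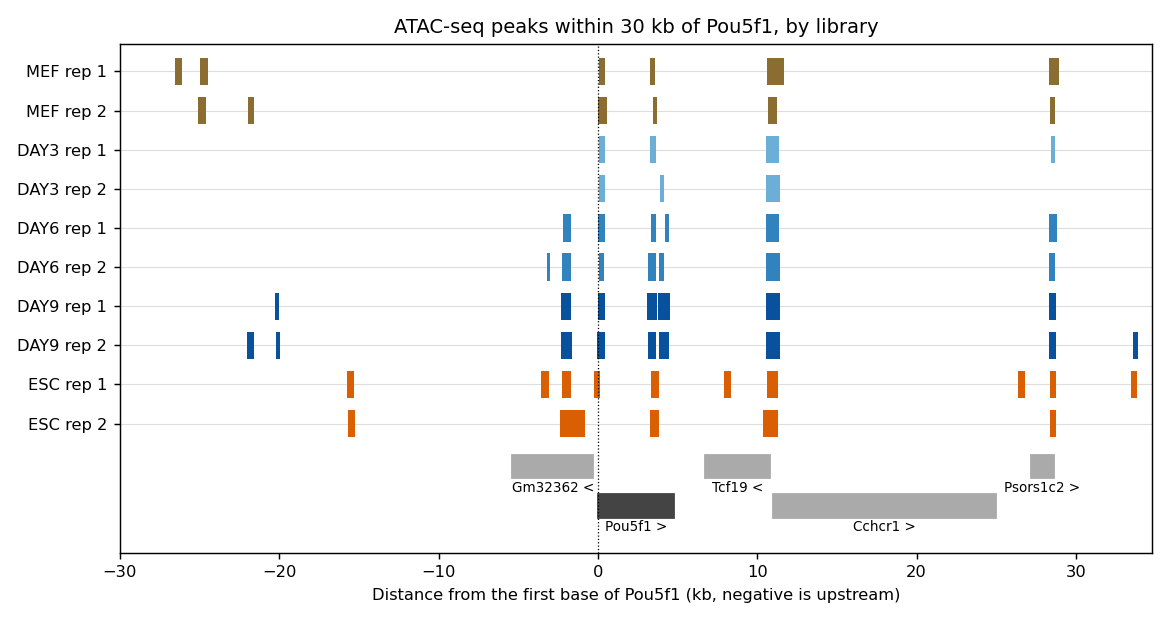
All 63 peaks from 30 kb before to 30 kb after Pou5f1, 1 row per library, against the distance from the first base of the gene (kb), with the genes of the window below. Peaks far upstream are listed in MEF, DAY9 and ESC at different places, and the peak at the Tcf19 and Cchcr1 starts in all 10 libraries.

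Downstream of the gene, the same peaks were listed at most stages. Besides the Tcf19 and Cchcr1 peak, one at Psors1c2, a gene of the skin-associated cluster beyond Cchcr1, was present in 9 libraries, all but DAY3 replicate 2. Its relative pileup lay between 3.12 (MEF replicate 2) and 6.66 (DAY6 replicate 1), close to the lowest level that can be listed. Peaks about 8.1 kb after the first base inside Tcf19 and about 26.6 kb after it outside any gene were listed in ESC replicate 1 alone. A further peak about 33.65 kb after the first base, outside any gene, was listed in DAY9 replicate 2 (fold 2.99) and ESC replicate 1 (3.74). Covered length downstream was not shown to differ between stages (44.9% of the variation, exact permutation test, p = 0.679, adjusted p = 0.679). The share was 78.6% without ESC replicate 2 and 6.04% relative to the covered length of the whole list, neither past the threshold (adjusted exact permutation p = 0.456 and 0.998).

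Across 12811 protein-coding genes whose covered length in the 5 kb before the start varied, the 5 most like Pou5f1 over the 10 libraries were Trip12, Cldn4, Arih2, Spic and Ubd. Their Pearson correlations with Pou5f1 were 0.993, 0.982, 0.981, 0.977 and 0.972, given as a description because the points share libraries and list lengths. Trip12, which encodes a ubiquitin ligase, had 0 covered bases in MEF and DAY3, 315 and 683 for DAY6, 589 and 542 for DAY9, and 1008 and 1136 for ESC. Cldn4, a tight junction gene, went from 0 in MEF and DAY3 to 1069 and 989 bases in ESC, and Spic, an ETS-family factor gene, to 732 and 784.

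The genes around Pou5f1 in its network were counted by the same window. Among the factors that act on the Pou5f1 enhancers or promoter, 8 of 10 activator genes had a strand in the table used, and 6 of them had a peak in both libraries of MEF, and likewise of DAY3, DAY6, DAY9 and ESC. Sox2 and Nanog were among these 6 from MEF on, and Esrrb and Nr5a2 were not at any stage. Background shares of all genes were 51.8% in MEF, 50.9% in DAY3, 55.0% in DAY6, 59.3% in DAY9 and 57.9% in ESC. Of 4 repressor genes, Nr6a1 and Nr2f1 had peaks in both libraries at every stage, and Nr2f2 and Cdx2 in both libraries of ESC alone. Of 12 genes bound by OCT4 with SOX2, 7 had a strand, and their number with peaks in both libraries was 3 in MEF, 2 in DAY3 and 7 in each of DAY6, DAY9 and ESC. Fgf4, a growth factor gene under an OCT4 and SOX2 enhancer, and Tdgf1, a Nodal co-receptor gene, were in this number from DAY6 on. None of these genes had the whole pattern of Pou5f1. Of the other POU genes, 8 of 9 had a strand, and 7 had peaks in both libraries of MEF, 6 of DAY3, 6 of DAY6, 7 of DAY9 and 7 of ESC.

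Markers of the labelled cell types were read in the same way. The background shares of all genes with peaks in both libraries were again 51.8% in MEF, 50.9% in DAY3, 55.0% in DAY6, 59.3% in DAY9 and 57.9% in ESC. Several of the counts below lie near these shares. Of 6 pluripotency genes with a strand, 2 had peaks in both libraries in MEF and DAY3 and 5 in DAY6, DAY9 and ESC, with Esrrb the one without. Of 7 fibroblast genes, 5 had them in MEF, 2 in DAY3, 1 in DAY6, 2 in DAY9 and 3 in ESC. Their summed covered length was 3244 to 3517 bases in MEF, 409 to 977 in DAY3, DAY6 and DAY9, and 1708 to 2295 in ESC, which were grown on feeder cells. Postn and Il1rl1 had no peak outside MEF. Prrx1 went the other way, with 0 bases in MEF, DAY3 and DAY6, 277 and 255 for DAY9, and 316 and 224 for ESC. Twist1, which had peaks at every stage, gave 1321 and 883 bases of the ESC sum. Pdgfra gave 248 and 565 bases of it, and outside ESC had a peak in MEF replicate 1 alone. Runx1 gave 410 bases of the ESC sum in replicate 1 and 0 in replicate 2. Outside ESC, Runx1 had peaks in MEF alone, with 660 and 863 bases. No MEF library had a peak about 2 kb before Pou5f1, and the part of feeder cells in the ESC values was not tested. Of 4 epithelial genes 1 had peaks in both libraries of MEF and of DAY3 and 3 in each of DAY6, DAY9 and ESC, and Epcam had the whole pattern of Pou5f1. The gene with peaks in MEF was Cldn6, which went the other way. Its covered length fell from 2210 and 1678 bases, the whole MEF sum, to 486 and 334 at DAY6 and to 364 and 707 for ESC. Summed over the 4 genes, DAY6 had 1026 and 942 bases, ESC 1147 and 1252, and DAY9 2070 and 2918. The summed length thus did not follow the counts. Of 3 trophoblast genes 0 had peaks in both libraries in MEF and 2 at each other stage, and of 2 blood genes 0 at any stage. The endoderm gene Foxa2 had them from DAY6 on, and of 2 endothelial genes Tek had them from DAY3 on. Each also had a peak in 1 MEF library, Foxa2 in replicate 1 (635 bases) and Tek in replicate 2 (376 bases).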

How the data were processed

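Chromatin accessibility was measured by ATAC-seq in 10 libraries, and the authors deposited 1 peak list per library, which is the level at which peaks were compared. The lists follow the narrowPeak layout, with a score, a fold enrichment (linear ratio) and −log10 p- and q-values made by the authors, and the score is 10 times the deposited −log10 p, rounded down, for at least 99.986% of the peaks of each list. The build mm10 and the tools Bowtie2 2.3.2 and MACS2 2.1.1 come from the submitters' processing notes. Handling of duplicates and the transposase offset is not given in the sources used here. Between 58.2% and 75.9% of peak numbers remained in the names. Lists held 45497 to 88980 peaks.

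Summit columns held no position, so peaks were placed by midpoint where the planned rule used the summit. Summit pileup n was recovered from fold = (n + 1) / (expected + 1) and the Poisson p-value, for at least 99.997% of peaks with −log10 p up to 300 (tolerance 0.01). The commonest expected pileup, 2.33 to 8.32, served as relative depth, as the lists give no sequencing depth. Genes, strands and promoters came from RefSeq GRCm38.p6, where 17491 of 21896 protein-coding genes had a strand. Tests were exact permutation tests in Python 3.11.15 with numpy 2.4.6, pandas 2.3.3 and scipy 1.17.1, adjusted by Benjamini-Hochberg over 8 tests. Labels do not say that replicates came from separate cultures, so p-values measure the spread between these samples. Named genes were those of the window, the cassette, fixed lists and the 5 most correlated. The members and lists were chosen with earlier results of these data known, and the positions within the locus after the peaks were seen. Calls were tested on simulated lists.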

Additional observations from a re-analysis of the deposited data

How the results depend on the processing

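The upstream peak about 2 kb before Pou5f1 was listed in the same 6 libraries with all peaks, with equal numbers of peaks and with scores of 133 (their pooled median) or more, where the gene-start peak was in 7 libraries under both restrictions (not in MEF replicate 1). Outside fits that left out a library, 70 of 90 alternative values kept their direction and side of the threshold or their size. With 10 libraries counted separately, upstream shares between stages were 97.9% and 92.0% (near and far), and the ordered pairs of the trend tests 16 upstream and 20 in the gene body, all then past 0.05. The near-upstream share was 72.4% with equal numbers of peaks, 73.3% with high scores and 68.8% counting peaks by midpoint, and the far upstream share 50.5% with equal numbers and 42.9% with high scores, none past 0.05. The gene-body share was no longer past it with equal numbers of peaks (82.7%), high scores (80.3%), relative to the covered length of the list (90.4%), counting peaks by midpoint (100%), or with the near-upstream window set from 3 kb before to 250 bp after the start (97.1%). Samples with the same replicate number did not deviate together (correlations of -0.0353 to 0.0631 in the 10 stage pairs), so the numbers are not a pairing. A fit with the replicate block gave a gene-body share of 97.7% (adjusted exact permutation p = 0.0667), where that p was 0.0206 with the same 10 libraries and no block. The block likewise took the adjusted p of the near and far upstream shares and the near-upstream and gene-body trends, past 0.05 with the libraries separate, to 0.0667. The downstream trend reversed relative to the covered length of the list, from 5 to -3 ordered pairs. Leaving out 1 library gave shares of 98.1% to 99.7% for the gene body, 97.2% to 99.2% near upstream and 99.9% to 99.96% far upstream. The gene-body trend was then 5 to 13 ordered pairs. Without a MEF, DAY6 or ESC library only 105 arrangements of the between-stage tests remained, too few to judge those calls. Without DAY3 replicate 2 the gene-body trend and the near and far upstream shares were past 0.05. So was the far upstream share without either DAY9 library. The causes were not tested. With a 1 kb window Pou5f1 was gained in 3 of 10 pairs, which were ESC against MEF, DAY3 and DAY6. These calls rest on different peaks, the weak promoter peak of ESC replicate 1 and the end of the wide upstream peak of ESC replicate 2, at position -814. ESC against DAY9 was not a gain because the gene-start peak of DAY9 replicate 2 covered 38 bases of the window. The share of all genes called with this window is not given here. No gain of DAY6 or DAY9 remained, and ESC against DAY6 was not a gain with the 5 kb window. The 14 regions became 9 with equal numbers and 6 with high scores, those of MEF 1 and 1 from 5, those of ESC 3 and 2 from 5 (10 with a peak in at least 1 library), and those of DAY6 3 with high scores. Depth limits what a missing peak shows, as pileups under 11 to 23 fragments could not be listed.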
